A study of Mus musculus with 5 samples.

Results

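RNA recovered with an anti-FLAG antibody from lysate of mouse embryonic stem cells labelled FLAG:MKRN1 was compared with the RNA of the same lysate before the immunoprecipitation. The comparison was a subtraction of 2 arrays, the anti-FLAG RIP (RNA immunoprecipitation) less its own input, on the log2 scale of the deposited values, so that a difference of 1 is a 2-fold difference. Every gene named by a probe set with 1 gene symbol was a member, and its brightest probe set was used. This gave 19937 genes from 34760 probe sets, and 11502 of them had a mean over the 5 arrays at or above a level filter of 5.76. The other 8435 genes lay under the filter and are left out of the counts unless stated.

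The cells were R1 embryonic stem cells of the hybrid strain 129X1 x 129S1, carrying G418 resistance and a pCAGGS construct that constitutively expressed a triple N-terminal FLAG tag. In the FLAG:MKRN1 clones the tag was fused to MKRN1, and in the FLAG:Ctrl clones it stood alone. Both lines were thawed on fibroblast feeders, moved to gelatin, and grown with LIF and 15% serum with no further treatment. Each RIP used 4 mg of lysate protein, 10 µg of antibody on Protein G beads, 1 h of incubation and 6 washes, and 10 ng of RNA from each RIP or input went into cDNA. Besides the 2 arrays of the comparison there were a FLAG:Ctrl input, an anti-FLAG RIP of the FLAG:Ctrl line and a RIP of FLAG:MKRN1 lysate with IgG, 1 array each. A constitutive promoter sets the level of the tagged protein in these clones, and no group had a second array.

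MKRN1 is a makorin, a protein with CCCH zinc fingers that bind RNA and a RING domain of the kind that transfers ubiquitin. In a RIP, RNA that stays with the tagged protein through the washes is read against total RNA of the lysate, and RNA held by the beads or the antibody comes along. Box H/ACA small nucleolar RNAs (Snora) guide pseudouridylation, and box C/D small nucleolar RNAs (Snord) guide ribose methylation, mostly of ribosomal RNA. Most of them are cut out of introns of other genes. Messenger RNAs of replication-dependent histones end in a stem-loop in place of a poly(A) tail.

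With 1 array per group there was no replicate error and no test, and each difference below describes these arrays only. The inputs gave Mkrn1 log2 values of 11.71 (FLAG:MKRN1) and 11.80 (FLAG:Ctrl), so its value did not separate the lines, and whether its probe set reads the construct is not known here. The RIP is therefore called the MKRN1-labelled RIP, and every direction rests on the label. In that RIP Mkrn1 was at 11.90, a difference of 0.19 from its own input, beside 0.40 for the FLAG:Ctrl RIP less the FLAG:Ctrl input. Mkrn2 and Mkrn3 differed from their own input by 0.00 and 0.37. Median values of the 5 arrays over all probe sets lay between 5.68 and 5.88. Of the pluripotency network genes, 35 of 35 were kept, as were 13 of 21 feeder fibroblast markers, 12 of 18 primitive endoderm markers, 9 of 14 trophectoderm markers and 5 of 13 genes of the two-cell-like state.

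Of the kept genes, 284 were at least 2-fold higher in the MKRN1-labelled RIP than in its own input (2.47%) and 634 were at least 2-fold lower (5.51%). At 4-fold the counts were 26 and 42. Of the higher genes 7 passed the level filter only through their value in the MKRN1-labelled RIP, and with the filter on the 4 other arrays the counts were 277 and 634. Higher genes were 30.9% of those past 2-fold with the values as deposited, 20.6% after centring each array on its median over all probe sets, which moved the median difference to -0.11, 40.8% after quantile normalization and 37.3% after removing the trend with level. The median difference was 0.00, the quartiles were -0.30 and 0.28, and 796 genes (6.92%) had equal values within 1e-06 on both arrays. The FLAG:Ctrl RIP less its own input, which shares no array with this comparison, gave 109 higher genes (0.948%) and 43 lower genes (0.374%). The IgG RIP less the FLAG:MKRN1 input gave 152 (1.32%) and 53 (0.461%). The SD of the differences over genes was 0.57 for the MKRN1-labelled RIP, 0.32 with FLAG:Ctrl and 0.33 with IgG. At the edges of the higher set, Lrrc8c (1.0023) lay just inside and Ccdc9 (0.9992) just outside, and at the lower edge Cdc123 (-1.0027) lay just inside and Anapc2 (-0.9995) just outside.

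The calls were repeated with the other input array. Against the FLAG:Ctrl input in place of its own, 286 genes were higher (2.49%) and 695 lower (6.04%). The 286 included 162 of the 284 genes higher against the own input (57.0%), and 9 of the 284 had a difference of 0 or below. Likewise 479 of the 634 lower genes (75.6%) were again at least 2-fold lower, and 11 had a difference of 0 or above. Higher genes had a median of -0.24 in the FLAG:MKRN1 input less the FLAG:Ctrl input, and lower genes a median of 0.05. In the FLAG:Ctrl RIP less its own input, 16 of the higher genes were also 2-fold higher, which is 5.63% of the higher set and 14.7% of the genes called in that RIP. Of the lower genes, 13 were also 2-fold lower there, which is 2.05% and 30.2% of the respective sets. In the IgG RIP less the same input, which shares the input array with the main comparison, the higher genes had a median of 0.49 and the lower genes a median of -0.02.

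Signal level moved with the difference. The kept genes were divided into 10 groups of nearly equal size by their value in the FLAG:Ctrl input, an array outside the difference. The median difference was 0.16 in the dimmest group, -0.22 in the ninth and -0.12 in the brightest. Genes at least 2-fold lower made up 0.869% of the dimmest group, 13.0% of the ninth and 7.38% of the brightest. Higher genes made up 3.04% of the dimmest group and 0.521% of the brightest. Higher genes had a median input level of 7.31 and lower genes one of 9.06, and the part of the level in any list's counts was not tested.

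**Figure D1:**
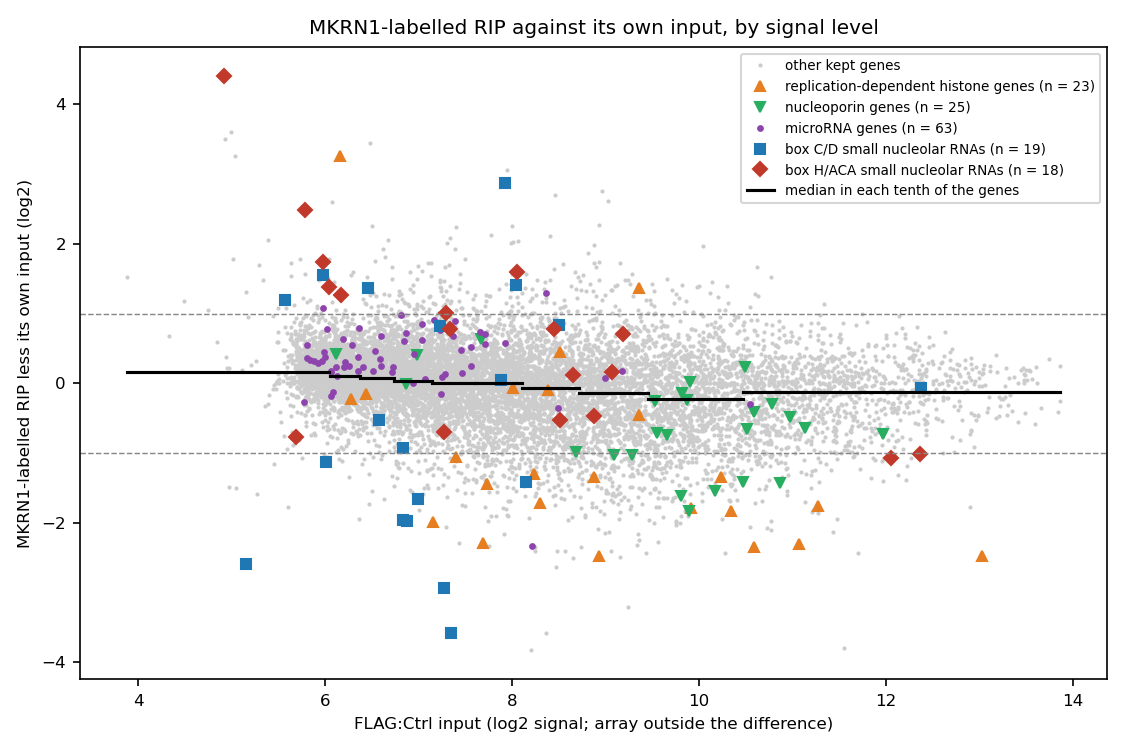
Each point is a kept gene, placed by its log2 value in the FLAG:Ctrl input (horizontal axis) and its difference between the MKRN1-labelled RIP and its own input (vertical axis, log2), with 5 lists in colour, dashed lines at 2-fold and black bars for the median of each of 10 level groups. Box C/D small nucleolar RNAs run from -3.59 to 2.87 and box H/ACA small nucleolar RNAs from -1.07 to 4.41. Of 23 histone genes 15 lie at least 2-fold below 0, and the median runs from 0.16 in the dimmest group to -0.22 in the ninth.

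Small and structured RNAs stood at both ends of the comparison. Of the 15 highest differences 4 belonged to genes that RefSeq (assembly GRCm38.p6) does not class as protein coding, 3 of class snoRNA and 1 snRNA. Of the 15 lowest 7 did, 3 of class snoRNA, 1 snRNA and 3 lncRNA, which are long transcripts. Over all kept genes of the RefSeq class snoRNA, 12 of 38 were at least 2-fold higher and 10 of 38 at least 2-fold lower, while the median was 0.14. Protein-coding genes had 252 of 11071 higher (2.28%) and 605 lower (5.46%). Genes of the class lncRNA had 14 of 220 higher and 12 of 220 lower, with a median of 0.14.

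**Figure D2:**
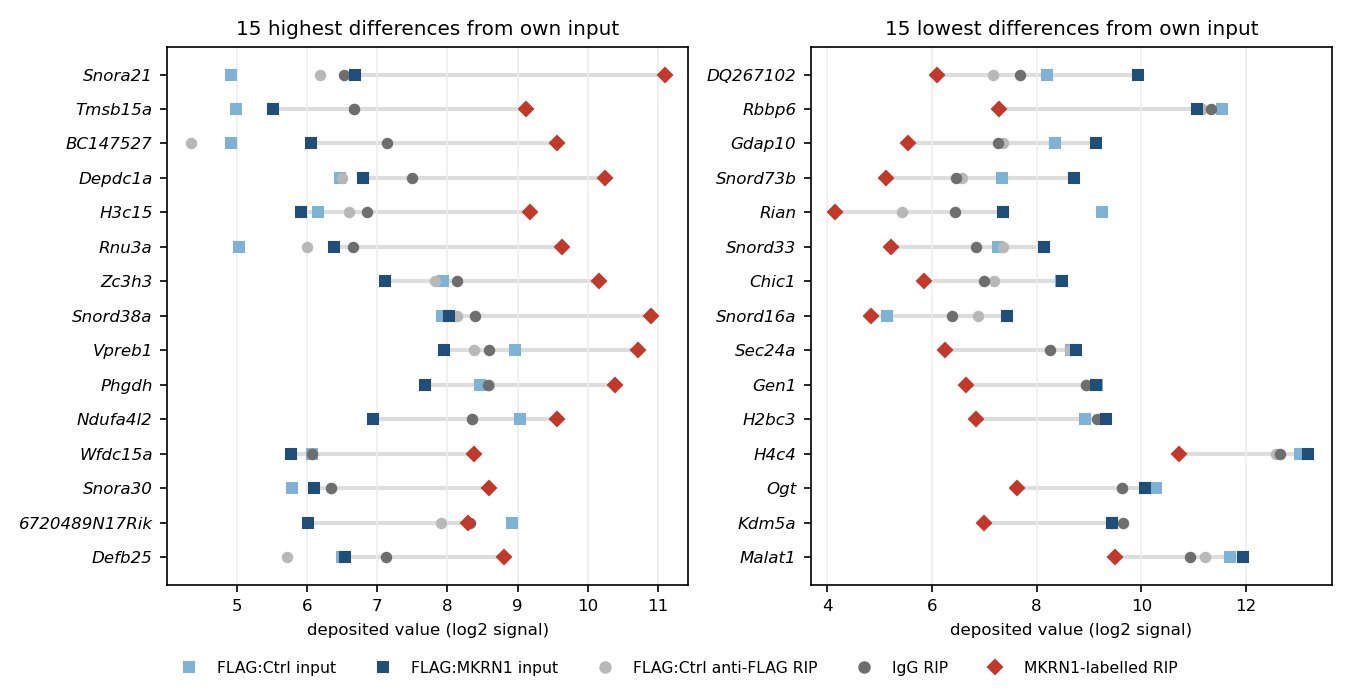
Log2 values on the 5 arrays (horizontal axis) of the 15 genes with the highest and the 15 with the lowest difference between the MKRN1-labelled RIP (red) and its own input (dark blue), joined by a bar. The MKRN1-labelled RIP holds the highest of the 5 values in 14 of the 15 genes on the left, all but 6720489N17Rik, and the lowest in all 15 on the right.

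Box H/ACA small nucleolar RNAs lay mostly above the lysate. Of 20 on the array 18 were kept; 7 were at least 2-fold higher and 2 at least 2-fold lower, with a median of 0.75. The same 18 had a median of 0.04 in the FLAG:Ctrl RIP less its own input and of -0.50 in the IgG RIP less the FLAG:MKRN1 input. All 7 higher members were also at least 2-fold above the FLAG:Ctrl input, and neither of the 2 lower members was 2-fold below it. With a filter at the 75th percentile of level, which leaves fewer of these RNAs, the median was -0.17. The MKRN1-labelled RIP held the highest of the 5 values for 11 of the 18, beside 29.5% of all kept genes.

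Snora21, a guide of this class encoded within the ribosomal protein gene Rpl23, had the highest difference of all genes. Its log2 values were 4.91 in the FLAG:Ctrl input, 6.68 in the FLAG:MKRN1 input, 6.19 in the FLAG:Ctrl RIP, 6.52 in the IgG RIP and 11.09 in the MKRN1-labelled RIP, which is 4.41, or 21.3-fold, above its own input. The MKRN1-labelled RIP lay far above the other 4 arrays, of which the FLAG:Ctrl input was the lowest. A second probe set of Snora21 gave a difference of 1.56, so the size depended on the probe set while the direction did not.

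Snora30 was at 5.78 and 6.09 in the FLAG:Ctrl and FLAG:MKRN1 inputs, 6.34 in both control RIPs and 8.59 in the MKRN1-labelled RIP, a difference of 2.49. Snora20 was at 5.97 and 7.91 in the inputs, 6.24 and 6.21 in the FLAG:Ctrl and IgG RIPs and 9.66 in the MKRN1-labelled RIP, a difference of 1.74. Snora62 was at 8.06 and 8.11 in the inputs, 8.11 and 8.04 in the control RIPs and 9.71 in the MKRN1-labelled RIP, a difference of 1.59. These 3 differed in the inputs: the FLAG:MKRN1 input exceeded the other by 1.94 for Snora20, 0.31 for Snora30 and 0.06 for Snora62. Snora16a (1.38), Snora41 (1.27) and Snora75 (1.01) were the remaining members past 2-fold.

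The 2 brightest members lay below the lysate. Snora73a, a member of the U17 family that acts in ribosomal RNA cleavage, was at 12.06 and 12.61 in the inputs, 11.95 and 12.23 in the FLAG:Ctrl and IgG RIPs and 11.54 in the MKRN1-labelled RIP, a difference of -1.07. Its sister copy Snora73b had a difference of -1.01; against the FLAG:Ctrl input these differences were -0.51 and -0.57. The copies share most of their sequence, so their probe sets may not be independent. Snora7a was the member whose inputs differed most, at 5.69 in the FLAG:Ctrl and 10.18 in the FLAG:MKRN1 input; its difference was -0.77 from its own input and 3.72 from the FLAG:Ctrl input.

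Box C/D small nucleolar RNAs divided into higher and lower members. Of 31 on the array 19 were kept; 5 were at least 2-fold higher and 8 at least 2-fold lower, with a median of -0.53 beside 0.08 in the FLAG:Ctrl RIP and -0.60 in the IgG RIP. All 5 higher members but only 4 of the 8 lower members also had a 2-fold difference against the FLAG:Ctrl input. With the 75th percentile filter the median of this class was 0.84. Snord38a had values of 7.92 and 8.02 in the FLAG:Ctrl and FLAG:MKRN1 inputs, 8.13 and 8.39 in the FLAG:Ctrl and IgG RIPs and 10.89 in the MKRN1-labelled RIP, which is 2.87, or 7.30-fold, above its own input. Its other 4 values lay close together. Snord35a (1.55), Snord14e (1.41), Snord55 (1.37) and Snord15b (1.20) made up the higher set; Snord15b passed the level filter only through the MKRN1-labelled RIP, and without it 4 of 18 were higher.

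Snord73b had the lowest difference of the class. It was at 7.34 in the FLAG:Ctrl input, 8.71 in the FLAG:MKRN1 input, 6.57 in the FLAG:Ctrl RIP, 6.46 in the IgG RIP and 5.12 in the MKRN1-labelled RIP, a difference of -3.59. All 3 RIPs lay below both inputs, and the MKRN1-labelled RIP was the lowest. Snord33 was at 7.27 and 8.14 in the inputs, 7.35 and 6.85 in the control RIPs and 5.21 in the MKRN1-labelled RIP, a difference of -2.93. Snord16a was at 5.15 and 7.43 in the inputs, 6.89 and 6.38 in the control RIPs and 4.84 in the MKRN1-labelled RIP; its difference was -2.59 from its own input and -0.31 from the FLAG:Ctrl input. For Snord73b, Snord33 and Snord16a the FLAG:MKRN1 input was thus the highest of the 5 arrays, and the MKRN1-labelled RIP lay under the level filter of 5.76.

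Many small nucleolar RNAs differed from the genes that contain them. By their position in RefSeq, 19 kept small RNAs lay inside a kept gene. Of these small RNAs 8 were at least 2-fold higher and 4 lower, while of the enclosing genes 0 were higher and 2 lower (Rian and Ipo7), with differences between -3.21 and 0.21 and a median of -0.10. In 11 of the 19 pairs the small RNA and its gene were at least 2-fold apart, the small RNA above its gene in 8 and below in 3. Snora21 had a difference of 4.41 beside 0.20 for Rpl23. Snora30 had 2.49 beside -0.56 for Srcap, a chromatin remodeller, and Snora20 had 1.74 beside -0.47 for the chaperonin gene Tcp1. In the other direction, Snord73b had -3.59 beside 0.19 for Rps3a1, and Snord16a had -2.59 beside -0.16 for Rpl4. Small RNAs of 1 gene could differ too: Rpl13a contains Snord33 (-2.93) and Snord35a (1.55). The pair DQ267102 and Rian was low together, at -3.83 and -3.21.

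**Figure D3:**
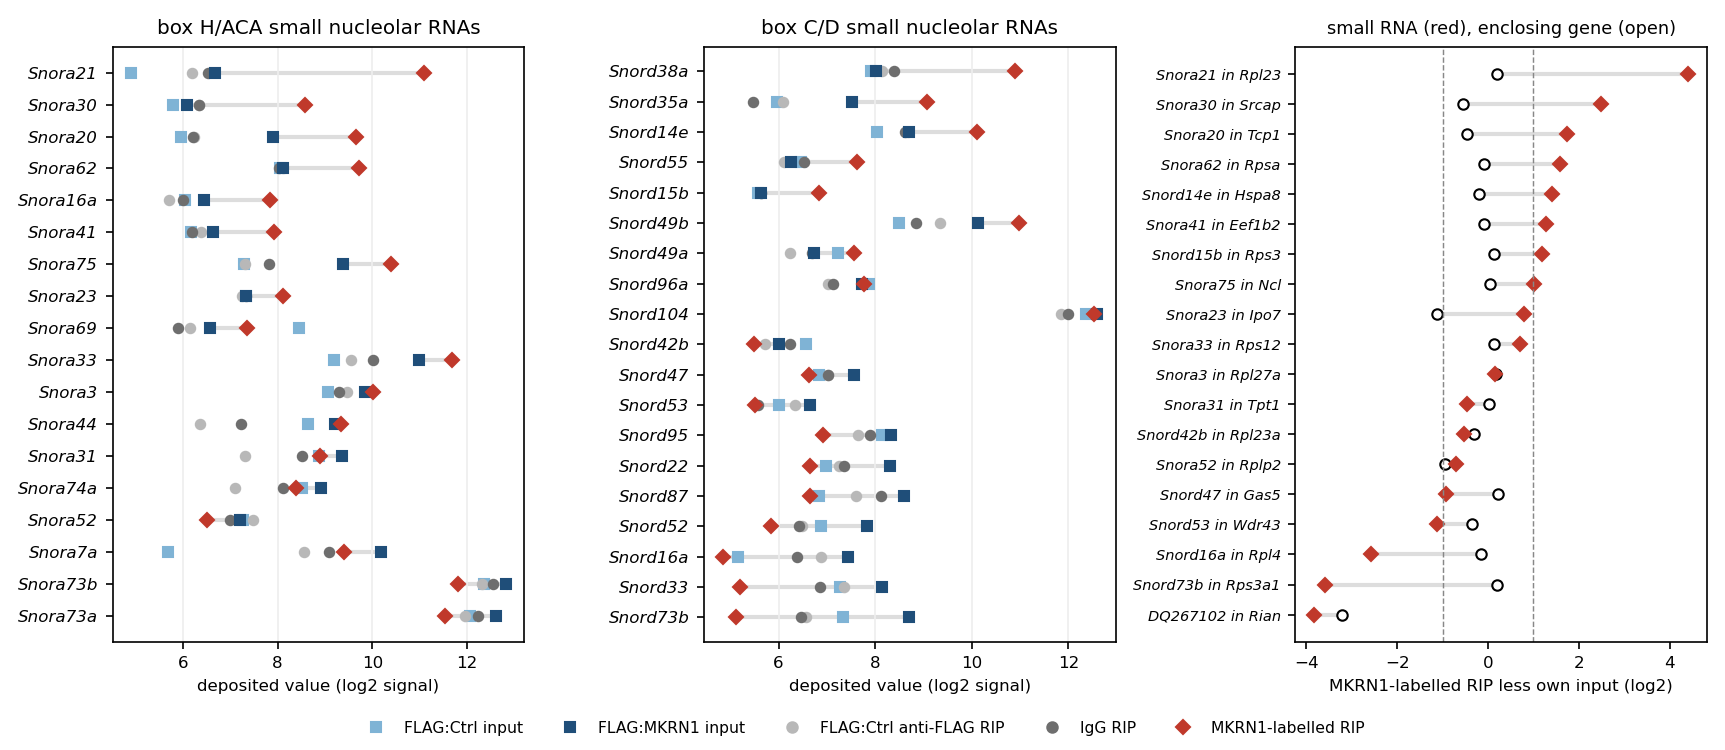
Left and centre, log2 values (horizontal axis) of the 18 kept box H/ACA and the 19 kept box C/D small nucleolar RNAs on the 5 arrays, with a bar from the FLAG:MKRN1 input to the MKRN1-labelled RIP; right, the difference between the MKRN1-labelled RIP and its own input (log2) for 19 small RNAs (red) and the genes that enclose them (open circles). The MKRN1-labelled RIP is the highest array for 11 box H/ACA and 7 box C/D members and the lowest for 3 and 10, and the enclosing genes stay between -3.21 and 0.21.

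Genes whose products build and work on small nucleolar ribonucleoproteins had a median below 0. Of 41 kept snoRNP and nucleolar protein genes 5 were at least 2-fold lower (12.2%) and 0 higher. Over all kept genes 2.47% were higher, so 0 in a list of this size is near the background. The share of lower members is under the 13.0% of the level group that holds the list's median FLAG:Ctrl input level of 10.40. The median was -0.29, with 10 members above 0, the highest being Utp18 (0.58). All 5 lower members were also 2-fold lower against the FLAG:Ctrl input. Polr1b, a subunit of RNA polymerase I, was at 7.95 in both inputs, 8.26 and 7.86 in the FLAG:Ctrl and IgG RIPs and 6.06 in the MKRN1-labelled RIP, a difference of -1.88. Utp20 (-1.48), Polr1a (-1.18) and Heatr1 (-1.14) followed, all involved in making or processing pre-ribosomal RNA. The 7 kept noncoding small nucleolar RNA host genes had a median of 0.21, with Snhg17 (1.25) past 2-fold. The other kept probe sets of Snhg17 gave 1.62 and -0.26.

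Other structured RNAs were few and went both ways. Of 13 on the array 9 were kept, 3 at least 2-fold higher and 2 lower, with a median of -0.15. Rnu3a, a U3 RNA of the small subunit processome, was at 5.03 and 6.38 in the FLAG:Ctrl and FLAG:MKRN1 inputs, 6.00 and 6.65 in the FLAG:Ctrl and IgG RIPs and 9.63 in the MKRN1-labelled RIP, a difference of 3.25, or 9.54-fold. Rnu12, the U12 RNA of the minor spliceosome, had a difference of 2.09, and the 5S ribosomal RNA gene n-R5s136 one of 1.92. Rnu3a, Rnu12 and n-R5s136 were also 2-fold above the FLAG:Ctrl input. For Rnu12 the own input was the low array, at 6.27 beside 7.33 in the FLAG:Ctrl input. Both control RIPs were at 7.52 and the MKRN1-labelled RIP at 8.36, so the IgG RIP was itself 1.24 above that input. Rny1, a Y RNA bound by the Ro protein, and Rmrp, the RNA of RNase MRP, had differences of -1.43 and -1.32. Both were at their lowest in the IgG RIP, at 5.66 and 7.76, which is -3.02 and -1.76 from the same input. Rn7sk, which holds the elongation factor P-TEFb inactive, was at 13.41 and 13.38 in the FLAG:Ctrl and FLAG:MKRN1 inputs and had a difference of -0.55. Scarna17, a small Cajal body RNA, had a difference of -1.38, beside -1.88 in the FLAG:Ctrl RIP less its own input.

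Most kept microRNA genes lay slightly above the lysate. Of 300 on the array 63 were kept; 55 had a difference above 0, the median was 0.33, and 2 were at least 2-fold higher and 1 lower. In the FLAG:Ctrl RIP and the IgG RIP the median of the same genes was -0.20 and -0.14. The MKRN1-labelled RIP was the highest of the 5 arrays for 52 of them (82.5%), beside 29.5% of all kept genes. Other lists of dim genes also had high shares, so this is not particular to microRNA genes. The share was 68.6% for olfactory receptor genes, 65.1% for collagen and laminin genes and 38.5% for cytochrome P450 genes. Of the 63 microRNA genes 3 passed the level filter only through the MKRN1-labelled RIP. Their median level in the FLAG:Ctrl input was 6.71, within the third of the 10 level groups, where the median difference of all kept genes was 0.08. Whether a probe set reads the hairpin, a longer precursor or the mature RNA was not tested.

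The mature sequences of the 3 microRNA genes past 2-fold are shown because these are the only members past 2-fold; they come from RefSeq (GRCm38.p6), with the seed, bases 2 to 8, in capitals.
mmu-miR-6516-5p: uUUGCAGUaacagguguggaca
mmu-miR-6516-3p: uCAUGUAUgauacugcaaacag
mmu-miR-335-5p: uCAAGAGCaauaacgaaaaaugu
mmu-miR-335-3p: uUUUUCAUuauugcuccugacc
mmu-miR-363-3p: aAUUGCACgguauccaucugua
They lie at chr11:117077370-117077391 and chr11:117077412-117077433 on the plus strand, at chr6:30741314-30741336 and chr6:30741354-30741375 on the plus strand, and at chrX:52741697-52741718 on the minus strand, in that order. Mir6516 was at 8.36 and 9.48 in the FLAG:Ctrl and FLAG:MKRN1 inputs, 7.95 and 8.68 in the control RIPs and 10.78 in the MKRN1-labelled RIP, a difference of 1.30. Mir335 was at 5.98 in both inputs, 5.89 and 5.63 in the control RIPs and 7.06 in the MKRN1-labelled RIP, a difference of 1.08. Mir363 was at 8.21 and 7.93 in the inputs, 6.87 in the FLAG:Ctrl RIP, 7.99 in the IgG RIP and 5.60 in the MKRN1-labelled RIP, a difference of -2.33. The seed of miR-363-3p is shared with the kept genes Mir25 (0.00) and Mir92b (0.49), which were not low with it, and no other microRNA gene on the array shared a seed with miR-335 or miR-6516.

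A short list of well-studied long noncoding RNAs lay mostly below the lysate, while the 220 kept genes of the lncRNA class had 14 higher and 12 lower members. Of 13 on the array 9 were kept, 0 at least 2-fold higher and 4 lower (44.4%), with a median of -0.52. Of 27 kept imprinted genes 6 were lower (22.2%). Rian and Meg3 are in both lists, so these counts overlap. Over all kept genes 5.51% were lower and 2.47% higher, so 0 higher members is near the background. The level groups that hold the lists' median FLAG:Ctrl input levels, 9.26 and 7.43, had 11.7% and 3.30% lower. The median of the imprinted genes was -0.12, and -0.95 with the 75th percentile filter. Malat1, a nuclear speckle RNA, was at 11.70 and 11.93 in the FLAG:Ctrl and FLAG:MKRN1 inputs, 11.21 and 10.93 in the FLAG:Ctrl and IgG RIPs and 9.50 in the MKRN1-labelled RIP, a difference of -2.43. The 3 RIPs all lay below both inputs. Rian, of the Dlk1-Dio3 imprinted region, was at 9.24 and 7.35 in the inputs, 5.43 and 6.43 in the control RIPs and 4.14 in the MKRN1-labelled RIP; its difference was -3.21, beside -3.81 for the FLAG:Ctrl RIP less its own input. Meg3 of the same region had -1.49 beside -1.12, and Tug1 had -1.20 beside -0.69. The imprinted coding genes Peg10 (-1.77) and Igf2r (-1.23) were also past 2-fold, beside -0.30 and 0.00 in the FLAG:Ctrl RIP less its own input.

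Replication-dependent histone genes had the lowest median of the lists with 5 or more kept members. Of 28 on the array 23 were kept; 15 were at least 2-fold lower and 2 at least 2-fold higher, and the median was -1.35, beside -0.05 in the FLAG:Ctrl RIP and -0.17 in the IgG RIP. Of the 15 lower members 12 were also 2-fold lower against the FLAG:Ctrl input. By histone, the lower members were 3 of 3 kept H2a genes, 5 of 9 H2b genes, 6 of 7 H4 genes and 1 of 3 H1 genes, and the 1 kept H3 gene was higher.

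H4c4, the brightest, was at 13.03 and 13.19 in the FLAG:Ctrl and FLAG:MKRN1 inputs, 12.58 and 12.64 in the FLAG:Ctrl and IgG RIPs and 10.71 in the MKRN1-labelled RIP, a difference of -2.47, or 5.55-fold lower. H2bc3 was at 8.92 and 9.32 in the inputs, 9.23 and 9.16 in the control RIPs and 6.84 in the MKRN1-labelled RIP, a difference of -2.48. For both, the MKRN1-labelled RIP lay well below the other 4 arrays. H4c6 (-2.35) and H2bc14 (-2.30) followed. Several histone genes are near-identical copies, so a probe set may read more than 1 of them.

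The exceptions were H3c15 and H2bc4. H3c15 was at 6.16 and 5.91 in the inputs, 6.60 and 6.85 in the control RIPs and 9.17 in the MKRN1-labelled RIP, a difference of 3.26. H2bc4 was at 9.35 in the FLAG:Ctrl input, 8.49 in the FLAG:MKRN1 input, 9.35 in the FLAG:Ctrl RIP, 9.77 in the IgG RIP and 9.86 in the MKRN1-labelled RIP. Its own input was the low array, and its difference of 1.37 became 0.50 against the FLAG:Ctrl input. Replacement histone genes, whose messenger RNAs are polyadenylated, had a median of 0.22 over 8 kept members with 2 higher and 0 lower; H2az2 had a difference of 1.15 and the linker histone gene H1f10 one of 1.27.

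**Figure D4:**
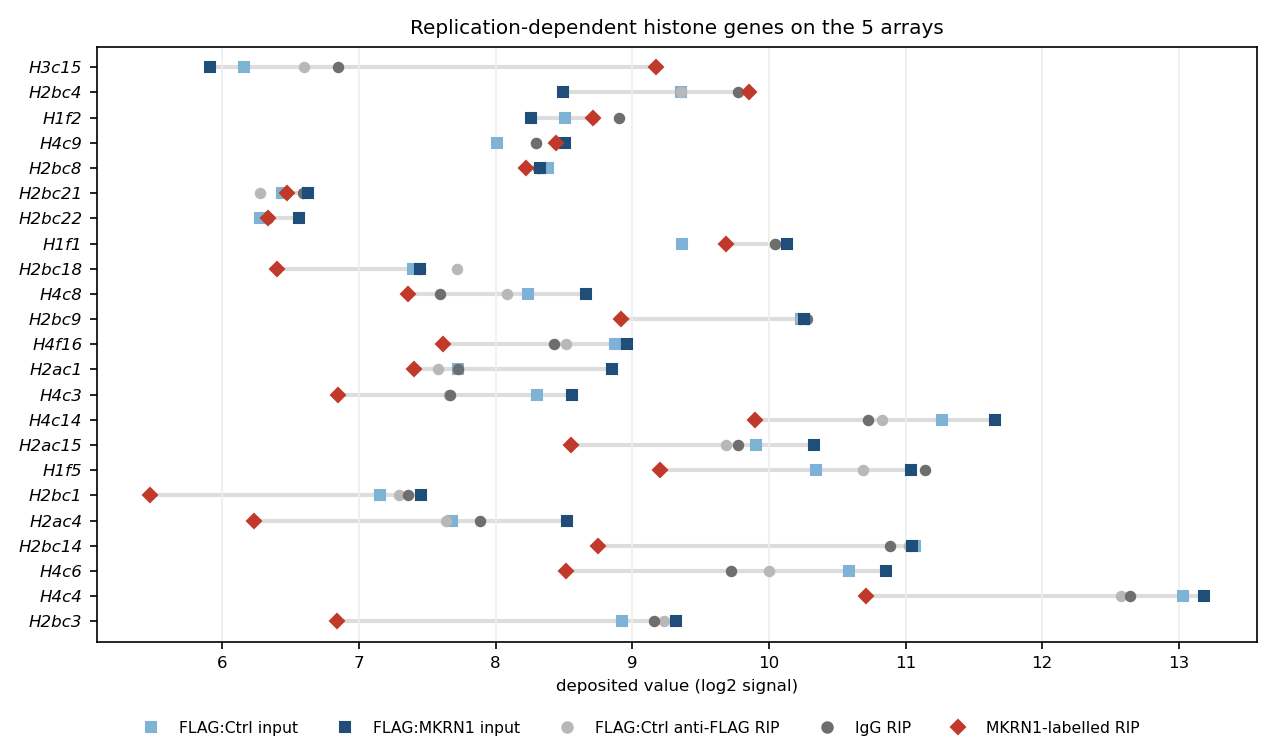
Log2 values (horizontal axis) of the 23 kept replication-dependent histone genes on the 5 arrays, ordered by the difference between the MKRN1-labelled RIP (red) and its own input (dark blue). The red symbol is the lowest of the 5 in 16 of 23 genes, and H3c15 and H2bc4 at the top lie at least 2-fold above their own input.

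Several lists of nuclear and cell-cycle genes had medians below 0; over all kept genes 5.51% were lower and 2.47% higher, so 0 or 1 higher members in lists of this size is near the background. Of 46 kept DNA repair genes 14 were at least 2-fold lower (30.4%) and 0 higher (median -0.53). The level group that holds the list's median FLAG:Ctrl input level of 8.35 had 8.70% lower. Brca2, a gene of homologous recombination, was at 8.78 and 8.92 in the FLAG:Ctrl and FLAG:MKRN1 inputs, 8.78 and 8.85 in the FLAG:Ctrl and IgG RIPs and 7.01 in the MKRN1-labelled RIP, a difference of -1.92. Its other 4 values lay close together. Rad18 (-1.59), the mismatch repair gene Pms2 (-1.45) and the helicase gene Wrn (-1.42) were the next lowest. Of the 14, 9 were also 2-fold lower against the FLAG:Ctrl input, and Wrn was not (-0.94).

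Of 65 kept chromatin remodelling and histone modifying genes 12 were at least 2-fold lower (18.5%) and 0 higher, with a median of -0.51. The level group that holds the list's median FLAG:Ctrl input level of 9.67 had 13.0% lower. Kdm6a, a histone H3K27 demethylase, was at 8.25 and 8.62 in the inputs, 8.25 and 8.30 in the FLAG:Ctrl and IgG RIPs and 6.22 in the MKRN1-labelled RIP, a difference of -2.40. Kdm5a, an H3K4 demethylase, had the lowest difference of the list at -2.44, and Pbrm1, a subunit of the PBAF remodeller, differences of -1.95, -1.03 and -1.26 in its 3 kept probe sets. The MKRN1-labelled RIP was the lowest array for 50 of the 65 genes (76.9%), beside 32.6% of all kept genes. Mbd3 had the highest difference of the list, at 0.84.

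Of 25 kept nucleoporin genes 7 were at least 2-fold lower (28.0%) and 0 higher (median -0.64), and 6 of the 7 held against the FLAG:Ctrl input. Nup98 was at 9.89 and 9.82 in the inputs, 9.67 and 9.65 in the control RIPs and 7.99 in the MKRN1-labelled RIP, a difference of -1.83. Nup188 (-1.61), Nup153 (-1.54) and Nup160 (-1.43) were next, scaffold and basket parts of the nuclear pore. Of 42 kept mitosis and spindle checkpoint genes 9 were lower (21.4%) and 1 higher (median -0.42). The median FLAG:Ctrl input levels of the nucleoporin and mitosis lists, 9.87 and 10.06, lie in the level group with 13.0% lower. The kinase gene Pbk (-1.97) was the lowest mitosis gene, with the kinetochore genes Cenpf and Cenpc1 at -1.48 each and the checkpoint kinase gene Bub1b at -1.32. Mad1l1 was the higher member, at 1.16. Kinesin genes had 3 of 30 lower (10.0%), led by Kif4 (-1.32), and 1 higher, Kif1c (1.40, and 0.46 in its other probe set). The level group that holds the kinesin list's median FLAG:Ctrl input level of 8.09 had 6.78% lower. DNA replication genes had 5 of 51 lower, led by Rif1 (-1.67) and Orc1 (-1.35), and 0 higher; that share, 9.80%, is under the 13.0% of the level group that holds the list's median FLAG:Ctrl input level of 9.62.

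Lists of RNA-handling protein genes had shares of lower and higher members near the background of 5.51% and 2.47% over all kept genes. Their medians lay between -0.30 and -0.05. Splicing factors had 5 of 66 at least 2-fold lower (7.58%) and 1 higher with a median of -0.05. The brightest level group, which holds the list's median FLAG:Ctrl input level of 10.55, had 7.38% lower. Prpf8, the central protein of the spliceosome, was at 10.31 and 10.55 in the inputs, 10.47 and 10.68 in the control RIPs and 8.87 in the MKRN1-labelled RIP, a difference of -1.68. Sf3b1 (-1.25) and the helicase gene Snrnp200 (-1.15) were also past 2-fold, and Prpf18 (1.36) was higher. Snrnp35 had a difference of -1.97 from its own input and -0.91 from the FLAG:Ctrl input, which was 1.07 lower. Translation factor genes had 2 of 61 lower (3.28%), both of eIF3 (Eif3l, -1.16, and Eif3a, -1.11). The 2 higher were Eif4a3l1 (1.79) and Eif5a (1.14, and 0.11 in its other probe set). The list's median was -0.19, with 40 of 61 members below 0. Genes of mRNA-binding proteins had 2 of 43 lower (4.65%) and 1 higher, Khdrbs1, whose 2 probe sets differed by 1.88 and -1.01. The median of these genes was -0.30, with 35 of 43 below 0. DEAD and DEAH box helicase genes had 2 of 48 lower (4.17%) and 1 higher (Ddx28, 1.33).

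Ubiquitin-pathway genes were compared because MKRN1 has a RING domain. RING finger ligase genes had 4 of 98 at least 2-fold lower (4.08%, beside 5.51% of all kept genes) and 1 higher, with a median of 0.00. Within this list Trim44 (-1.67) was the lowest and Trim8 (1.29, and 0.53 from the FLAG:Ctrl input) the highest. The list does not hold every RING finger gene, and Rbbp6 (-3.80), described below, is outside it. Of 29 ubiquitin-conjugating enzyme genes 0 passed 2-fold in either direction. Ubiquitin-specific protease genes had 6 of 39 lower (15.4%) and 0 higher, with a median of -0.53. Usp34 was at 9.52 in both inputs and the IgG RIP, 9.57 in the FLAG:Ctrl RIP and 8.03 in the MKRN1-labelled RIP, a difference of -1.50. Usp24 (-1.36) and Usp33 (-1.30) were next, and Usp54 had -1.33 from its own input and -0.11 from the FLAG:Ctrl input. The other probe sets of Usp24 and Usp54 gave -0.39 and 0.00 from the own input. The list of proteasome genes had 1 of 49 lower, Psmg1 (-1.21), and 1 higher, Psmf1 (1.02, and 0.59 from the FLAG:Ctrl input). Psmg1 encodes an assembly chaperone and Psmf1 an inhibitor, so neither is a gene of a proteasome subunit. The 8 TRiC chaperonin genes lay between -0.58 and 0.10.

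**Figure D5:**
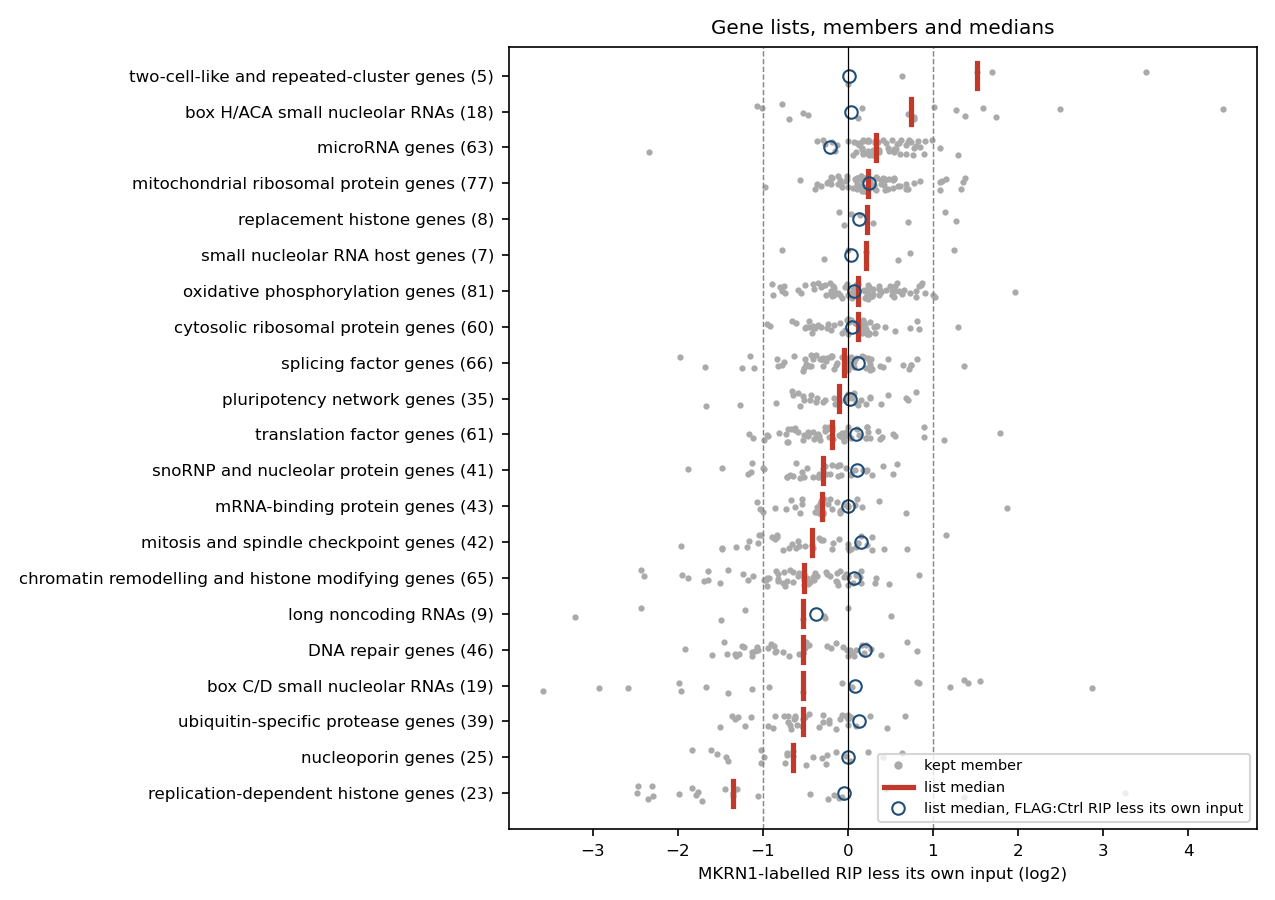
Difference between the MKRN1-labelled RIP and its own input (log2, horizontal axis) for the kept members (grey points) and the median (red bar) of 21 gene lists, with the number kept in brackets and the median of the FLAG:Ctrl RIP less its own input as an open circle; dashed lines mark 2-fold. The lowest median is -1.35 for replication-dependent histone genes, and the two-cell-like list at the top (1.52) holds 5 kept genes, with a median of 0.22 over all 13 members without the filter.

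Gene lists of ribosomes and mitochondria had medians close to 0. The 60 cytosolic ribosomal protein genes had a median of 0.12, with 1 higher (Rpl39l, 1.30) and 0 lower. The 77 mitochondrial ribosomal protein genes had a median of 0.23. The control RIPs gave nearly the same median, 0.25 with FLAG:Ctrl and 0.34 with IgG. Of the 77 genes 7 were higher (9.09%, beside 2.47% of all kept genes) and 0 lower. The level group that holds the list's median FLAG:Ctrl input level of 9.32 had 3.39% higher. In the control RIPs 1 (FLAG:Ctrl) and 3 (IgG) of the 77 were at least 2-fold higher. Mrpl52 (1.38), Mrpl36 (1.36), Mrps25 (1.33) and Mrps36 (1.15) were the highest, and 3 of the 7 held against the FLAG:Ctrl input. The other probe set of Mrps36 gave 0.29. Of 81 oxidative phosphorylation genes 2 were higher and 0 lower. Cox7a1, a subunit of cytochrome c oxidase, was at 10.05 and 9.32 in the inputs, 9.90 and 10.14 in the control RIPs and 11.29 in the MKRN1-labelled RIP, a difference of 1.97, and Ndufa3 had 1.03.

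Receptor genes had a larger share of lower members than all kept genes, and solute carrier genes a share near it. Of 53 kept adhesion and growth factor receptor genes 11 were at least 2-fold lower (20.8%, beside 5.51% of all kept genes) and 0 higher, with a median of -0.14. Bmpr1a, a BMP receptor, was at 9.04 and 8.99 in the inputs, 8.99 and 9.20 in the control RIPs and 6.85 in the MKRN1-labelled RIP, a difference of -2.13. The integrin gene Itga6 (-1.64) and Il6st (-1.52), the signalling subunit of the LIF receptor, followed. Solute carrier genes had 11 of 180 lower (6.11%) and 0 higher, with Slc23a2 lowest at -1.93. Zinc finger (Zfp) genes, the largest list of kept genes at 257, had 19 lower and 10 higher; Zfp292 (-1.92) and Zfp938 (1.67) were at its ends.

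Among the pluripotency network genes 2 of 35 were lower and 0 higher, Rif1 (-1.67) and Tbx3 (-1.26), with a median of -0.11. Dppa4 had the highest difference, 0.80, beside 1.02 in the FLAG:Ctrl RIP less its own input. Markers of other cell types stayed near the lysate: 1 of 13 feeder fibroblast markers (Cnn1, -1.35), 1 of 12 primitive endoderm markers (Lamc1, -1.13) and 1 of 9 trophectoderm markers (Krt8, -1.78) were lower, and 0 members of the 3 lists were higher. The feeder list had a median level of 6.74 in the FLAG:MKRN1 input, beside 6.78 in the MKRN1-labelled RIP, and that of the pluripotency list 9.59 and 9.28.

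Of 5 kept two-cell-like genes 3 were higher, but their inputs differed as well, and BC147527 passed the level filter only through the MKRN1-labelled RIP. Over all 13 members without the filter the median was 0.22. BC147527 was at 4.93 and 6.06 in the FLAG:Ctrl and FLAG:MKRN1 inputs, 4.35 and 7.14 in the FLAG:Ctrl and IgG RIPs and 9.57 in the MKRN1-labelled RIP, a difference of 3.50. AF067061 was at 3.88 and 10.94 in the inputs, 5.94 and 11.62 in the control RIPs and 12.46 in the MKRN1-labelled RIP, a difference of 1.52. All 3 arrays of FLAG:MKRN1 lysate were high for AF067061 and both arrays of FLAG:Ctrl lysate low. Tcstv3 had the same order, with a difference of 1.70 from its own input and an IgG RIP 1.30 above that input.

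The other genes at the high end were of mixed kinds. Tmsb15a, a beta-thymosin that binds actin monomers, was at 4.99 and 5.51 in the inputs, 6.67 in both control RIPs and 9.12 in the MKRN1-labelled RIP, a difference of 3.61; the other kept beta-thymosin genes, Tmsb10 and Tmsb4x, had 0.12 and 0.07. Phgdh, the first enzyme of serine synthesis, was at 8.46 and 7.68 in the inputs, 8.59 and 8.58 in the control RIPs and 10.38 in the MKRN1-labelled RIP, a difference of 2.70. Ndufa4l2 had a difference of 2.61 from its own input but 0.53 from the FLAG:Ctrl input, which was at 9.03 against 6.94. Cdkn1b, an inhibitor of cyclin-dependent kinases, had 2.11 in its brightest probe set and -0.27 in the other. Depdc1a (3.45 and -0.41) and Zc3h3 (3.05 and -0.29) likewise had a second probe set that was not high. Over all 284 higher genes 26 had a second kept probe set, and in 4 of these another probe set was also 2-fold higher. The remaining names at this end, Vpreb1 (2.76), Wfdc15a and Defb25 (2.26), are genes of lymphoid or epithelial tissues.

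At the low end, Rbbp6, a RING finger gene linked to 3' end processing of messenger RNA, was at 11.55 and 11.07 in the inputs, 11.16 and 11.32 in the control RIPs and 7.27 in the MKRN1-labelled RIP. That is a difference of -3.80, or 13.9-fold lower, and its 2 other kept probe sets gave -0.68 and -1.92. Ogt, the O-GlcNAc transferase gene, had a difference of -2.44, the COPII coat gene Sec24a -2.51 and the nuclease gene Gen1 -2.49. Chic1 (-2.63) and Gdap10 (-3.59) were also low in the FLAG:Ctrl RIP less its own input, at -1.29 and -1.01. Among the 634 lower genes 56 had a second kept probe set, and in 17 of these another probe set was also 2-fold lower.

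Families that embryonic stem cells hardly use supplied few kept genes. Of 1027 olfactory receptor genes on the array 35 were kept, 1 was higher (Olfr328, 1.05) and 0 lower, with a median of 0.21. Keratin-associated, defensin and protamine genes had 23 of 123 kept, 1 higher (Defb25) and 0 lower, with a median of 0.23. The dimmest of the 10 level groups of all kept genes had a median of 0.16. Without the level filter the counts over all 19937 genes were 313 higher (1.57%) and 643 lower (3.23%). Among metabolic and stress lists, 0 of 21 cholesterol synthesis genes, 0 of 19 glycolysis genes and 0 of 25 immediate early genes passed 2-fold. Lower members numbered 4 of 26 p53 and apoptosis genes (15.4%), 3 of 32 endoplasmic reticulum stress genes (9.38%) and 2 of 25 oxidative stress genes (8.00%). Of all kept genes 5.51% were lower, and 0 members of these 3 lists were higher. The lists' median FLAG:Ctrl input levels were 7.99, 9.05 and 9.46. The level groups that hold them had 6.78%, 11.7% and 13.0% lower, in that order. Both stress lists were thus under the share of their level group.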

How the data were processed

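RNA of 2 inputs and 3 RIPs was hybridised to Affymetrix arrays, 1 array per group, and the authors deposited 1 table of log2 expression values per probe set. Summary method, background correction and normalization: not given in the sources used here, so the scale between arrays rests on the authors' processing. Of 34760 probe sets, 21640 have 1 gene symbol in the platform annotation, 1321 have several and 11799 have none; 21553 of the 21640 matched RefSeq (GRCm38.p6) for the current symbol and class. The brightest probe set, by its mean across all 5 arrays, stood for its gene, and genes with a mean of at least 5.76 were kept. Differences of deposited log2 values were computed with python 3.11.15, pandas 2.3.3 and numpy 2.4.6, with no pseudocount, and the calculation was tested on simulated data. A gene counted as higher or lower at a difference of 1 or more. With 1 array per group no p-value, error or interval was computed, depth does not apply, and precision is limited by how many arrays there are.

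Named genes were the 15 highest and 15 lowest kept genes, up to 4 kept members at each end of each list (members under the filter only where a list had under 5 kept), Mkrn1, Mkrn2 and Mkrn3; any other name was chosen after its values were seen. Members and lists were chosen with earlier results of these data known. The alternatives were centring, quantile normalization, removal of the trend with level (a running median over 501 genes), other filters and thresholds, the median over probe sets, and the other input. A description by protein length was replaced by one by signal level, because no protein table was used here. Of the 63 kept microRNA genes, 54 matched a RefSeq mature sequence.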

Additional observations from a re-analysis of the deposited data

Results flagged for a closer look

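In 3 named genes the MKRN1-labelled RIP and the FLAG:Ctrl RIP moved in opposite directions from their own inputs by at least 2-fold each; with 1 array per group the difference between the 2 RIPs was not tested. For 6720489N17Rik the MKRN1-labelled RIP was 2.27 above its own input, while the FLAG:Ctrl RIP was at -1.02 from its own. Snord16a had -2.59 with the MKRN1 label and 1.74 with FLAG:Ctrl. For Timm21, of the mitochondrial inner membrane translocase, the values were -1.94 and 1.19. In all 3 the 2 inputs themselves differed: 6720489N17Rik was at 8.92 in the FLAG:Ctrl and 6.02 in the FLAG:MKRN1 input, Snord16a at 5.15 and 7.43, and Timm21 at 9.14 and 7.25.

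Probe sets outside the gene comparison also carried signal. Among 4197 kept probe sets without a gene symbol, 366 (8.72%) were at least 2-fold higher in the MKRN1-labelled RIP than in its own input and 586 (14.0%) at least 2-fold lower. The IgG RIP less the same input gave 151 higher (3.60%), and the FLAG:Ctrl RIP less its own input 167 (3.98%). Among 705 kept probe sets with several symbols, 54 (7.66%) were higher and 59 lower, beside 16 higher (2.27%) in each control RIP. What these probe sets read was not tested.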

How the results depend on the processing

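No paired analysis was possible because each group had 1 array, and leaving out a replicate was not possible for the same reason. Of 284 higher and 634 lower genes, the counts were 1068 and 1640 at 1.5-fold and 26 and 42 at 4-fold. A filter at the 75th percentile left 161 higher genes, and 162 were 2-fold above both inputs, an alternative chosen after seeing the data, as was a filter on the 4 arrays other than the MKRN1-labelled RIP, which gave 277 and 634. The median of box H/ACA small nucleolar RNAs was -0.17 with the 75th percentile filter, a reversal, and 1.30 against the FLAG:Ctrl input. The median of box C/D small nucleolar RNAs was 0.84 with the 75th percentile filter, also a reversal, -0.066 without a filter, -0.26 with values raised to the filter level and -0.19 against the FLAG:Ctrl input. Against the FLAG:Ctrl input 6720489N17Rik was at -0.63 and Tmem199 at -0.048, and Qk was at 0.49 as the median over its probe sets, each with the sign turned; the cause was not tested. Of 172 named genes past 2-fold, 115 stayed past it under every alternative run and these 3 changed sign. The median of replication-dependent histone genes lay between -1.45 and -1.14 over the alternatives, that of nucleoporin genes between -0.75 and -0.48, and that of microRNA genes between 0.18 and 0.57, while that of imprinted genes ran from -0.95 to -0.05 and that of two-cell-like genes from 0.22 to 3.95. The description by protein length was not run.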

Other observations

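Further families, chosen after their values were seen and so given as description only, lay to either side of the lysate. Cohesin and condensin genes, whose ring-shaped complexes hold and fold chromosomes, had 9 of 20 kept members at least 2-fold lower in the MKRN1-labelled RIP than in its own input and 1 higher, with a median of -0.81. Stag2 (-1.62), Stag1 (-1.51) and the cohesin loader gene Nipbl (-1.36) were the lowest, and Ncaph2 (1.18) was the higher member. Integrator genes, whose complex cleaves small nuclear RNA transcripts, had 4 of 15 lower and 0 higher (median -0.69), led by Ints13 (-1.69) and Ints2 (-1.58). Exocyst genes had 3 of 12 lower (25.0%) and 0 higher, with a median of -0.38. Palmitoyltransferase genes had 4 of 18 lower (22.2%) and 0 higher, with a median of -0.0003. Over all kept genes 5.51% were lower and 2.47% higher, so 0 or 1 higher members in families of this size is near the background.

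Other families had members past 2-fold on the higher side only. Over all kept genes 2.47% were higher and 5.51% lower, so 0 lower members in families of this size is near the background. G protein gamma subunit genes had 4 of 9 kept members higher and 0 lower (median 0.76); Gng13 had a difference of 1.32 and Gng5 one of 1.20, while Gng10 had 1.32 from its own input and 0.22 from the FLAG:Ctrl input. Small integral membrane protein genes had 4 of 17 higher and 0 lower (median 0.36), with Smim27 (2.01) and Smim8 (1.73) highest. S100 calcium-binding genes had 2 of 8 higher, S100a2 (1.54) and S100a1 (1.21), and 1 of 8 against the FLAG:Ctrl input. Syntaxin genes had 3 of 12 higher, Stx18 (1.17), Stx6 (1.14) and Stx8 (1.10), but 1 of 12 against the FLAG:Ctrl input, and 2 of 12 were 2-fold higher in the IgG RIP than in the FLAG:MKRN1 input. The gamma subunit genes had 2 of 9 and the small integral membrane protein genes 4 of 17 against the FLAG:Ctrl input.

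Probe sets of 1 gene could differ widely. The 15 probe sets of Dnajc13 had differences between -3.89 and -0.12, and the 5 of Rpl10 between -1.83 and 1.84.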
